A study of Mus musculus with 61 samples.

Results

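The genes described here carry glucose into the muscle fibre, split it to lactate, and store it as glycogen. They are 31 of the 55011 genes of a count table from mouse skeletal muscle, taken by symbol: 3 transport genes, 17 glycolysis genes and 11 genes of glycogen making and breakdown. All 31 passed the low-count filter in every fit, and no library had a count of 0 for any of them. RNA from whole muscle was sequenced in 61 libraries that fall into 22 groups, with 3359683 to 14445336 counts a library. The design asked how regulatory T cells, a class of immune cell marked by Foxp3, bear on the response of muscle to exercise.

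Wild-type C57BL/6J mice gave quadriceps (Qd) and tibialis anterior (TA) libraries at rest and at 1, 2 and 7 days of recovery from acute exercise, 3 libraries each. In the second experiment Foxp3DTR+ and Foxp3DTR- mice, all given diphtheria toxin (DT), gave quadriceps at rest and at 1 and 7 days of recovery. The Foxp3DTR+ mice of Foxp3-IRES-GFP.hDTR stock carry the human toxin receptor under control of the Foxp3 locus, so the toxin removes Foxp3-expressing cells wherever they are in the body. These acute groups held 3 DTR- and 2 DTR+ libraries at rest, 3 and 3 at day 1, and 2 and 2 at day 7. In the third experiment DTR+ and DTR- mice given DT were either sedentary or trained for 2 weeks, with 3 quadriceps libraries in each of 4 groups. In the fourth, DTR+ mice given DT were trained for 2 weeks. They received either IgG or an antibody against interferon gamma (anti-IFN-gamma) for 1 week, 3 quadriceps libraries each. In the last, sedentary C57BL/6JN mice aged 24 months received IgG or anti-IFN-gamma for 1 week. They gave 2 libraries each, from a muscle that the labels do not name.

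Slc2a4 encodes GLUT4, the glucose carrier that insulin and contraction bring to the fibre surface, and Slc16a1 and Slc16a3 encode MCT1 and MCT4, which move lactate with a proton. Hexokinase (Hk1, Hk2) traps glucose, Pfkm commits it to glycolysis, and lactate dehydrogenase (Ldha, Ldhb) interconverts pyruvate and lactate. Glycogen is built on the primer protein glycogenin (Gyg) by glycogen synthase (Gys1) and the branching enzyme (Gbe1), and released by muscle phosphorylase (Pygm), which phosphorylase kinase (Phka1, Phkb, Phkg1) switches on. Fast fibres of limb muscle depend most on this route.

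Levels are in CPM, the counts of a gene scaled to a common total of counts per library. Differences are log2 fold changes ± SE from edgeR's quasi-likelihood test with TMM scaling, so they need not equal the ratio of mean CPM. A gene is said to have risen or fallen where its p-value, adjusted by Benjamini-Hochberg over all genes tested, was under 0.05. P-values measure the spread between these libraries. In whole muscle, fewer cells of a type and less RNA per cell cannot be told apart.

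The resting and day 7 libraries of the acute experiment stood apart from the others. Mitochondrially encoded genes took 7.89% to 23.5% of their counts, and 14701 to 18494 genes were detected. In the 48 libraries of 16 groups that exclude these and the aged mice, the ranges were 4.13% to 8.93% and 17342 to 26596 genes. Foxp3 itself was at 0 counts in 41 of 61 libraries and reached at most 9. It totalled 25 counts in the 8 acute DTR- libraries against 2 counts in the 7 acute DTR+ libraries, and 4 against 2 counts in 6 and 6 libraries of the training experiment, which is too few to check the depletion there. All 11 fast-fibre markers were detected in every group, as in limb muscle. Reads of Pfkm, Aldoa, Tpi1, Gapdh, Pfkfb1, Phkg1 and Gys1 may include some from protein-coding genes that overlap them, and those of Gapdh, Pgk1, Ldha and Aldoa may be shared with near-identical pseudogene copies, so their levels are uncertain to that extent.

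Glycolytic transcripts made up a large share of the muscle transcriptome at rest. In resting wild-type quadriceps the 31 genes summed to 71408 ± 492 CPM (SD, n = 3). Aldoa, the aldolase that splits fructose bisphosphate, stood at 25997 ± 352 CPM and took 36.4% of that sum. Eno3, the muscle enolase, followed at 7819 ± 301 CPM, Pygm at 6311 ± 55.5 CPM, Ldha at 5330 ± 133 CPM and Pkm, the pyruvate kinase, at 4477 ± 72.1 CPM. Compared between genes per kilobase of exon, Aldoa again led at 8931 CPM per kb, then Eno3 at 4496, the muscle phosphoglycerate mutase Pgam2 at 3938 and Pygm at 1961 CPM per kb. Exon lengths were merged over all annotated transcripts of a gene and need not match the expressed one. Levels and shares per length are therefore approximate.

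The isoforms of a step were far from equal. Hk1 was the lowest of the 31 at 1.34 CPM per kb, against 50.5 CPM per kb for Hk2, the insulin-regulated hexokinase of muscle. The housekeeping lactate carrier Slc16a1 stood at 6.48 CPM per kb against 81.5 CPM per kb for Slc16a3, the form of glycolytic fibres. Ldhb, the heart-type subunit that prefers lactate as substrate, stood at 154 CPM per kb against 1610 CPM per kb for Ldha.

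The regulators were low beside the enzymes. Tigar, a phosphatase that lowers the glycolytic activator fructose 2,6-bisphosphate, stood at 58.8 ± 5.76 CPM, Pfkfb1, which makes and removes that activator, at 53.9 ± 4.60 CPM, and Fbp2, the muscle fructose bisphosphatase, at 44.5 ± 6.00 CPM. Among glycogen genes the branching enzyme Gbe1 stood at 75.1 ± 6.95 CPM and Stbd1, which tethers glycogen to membranes, at 77.4 ± 6.23 CPM. The targeting subunits that bring protein phosphatase 1 to glycogen were higher, Ppp1r3a at 468 ± 48.2 CPM and Ppp1r3c at 606 ± 7.10 CPM. In the middle of the range were Gpi1 at 1116 ± 45.5 CPM, Tpi1 at 3273 ± 81.2 CPM, Gapdh at 3122 ± 78.0 CPM, Pgk1 at 204 ± 9.73 CPM and Gpd1, which leads from glycolysis to glycerol phosphate, at 576 ± 20.9 CPM. Phka1 stood at 868 ± 16.9 CPM, Phkb at 370 ± 41.8 CPM, Phkg1 at 368 ± 19.7 CPM, Gyg at 676 ± 59.7 CPM and Ugp2, which makes the UDP-glucose added to glycogen, at 526 ± 35.2 CPM.

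Across the 16 groups the group means of most of these genes stayed close together. The highest group mean exceeded the lowest by a median of 1.61-fold, and by less than 2-fold for 23 of 31 genes. Pygm was the steadiest at 1.26-fold and Stbd1 the most variable at 9.50-fold, from 19.5 CPM in trained IgG mice to 185 CPM in the tibialis anterior at day 2. Ldhb followed at 3.25-fold. Over all 22 groups the median spread was 3.32-fold, from 1.59-fold for Gyg to 35.9-fold for Slc16a3.

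**Figure D1:**
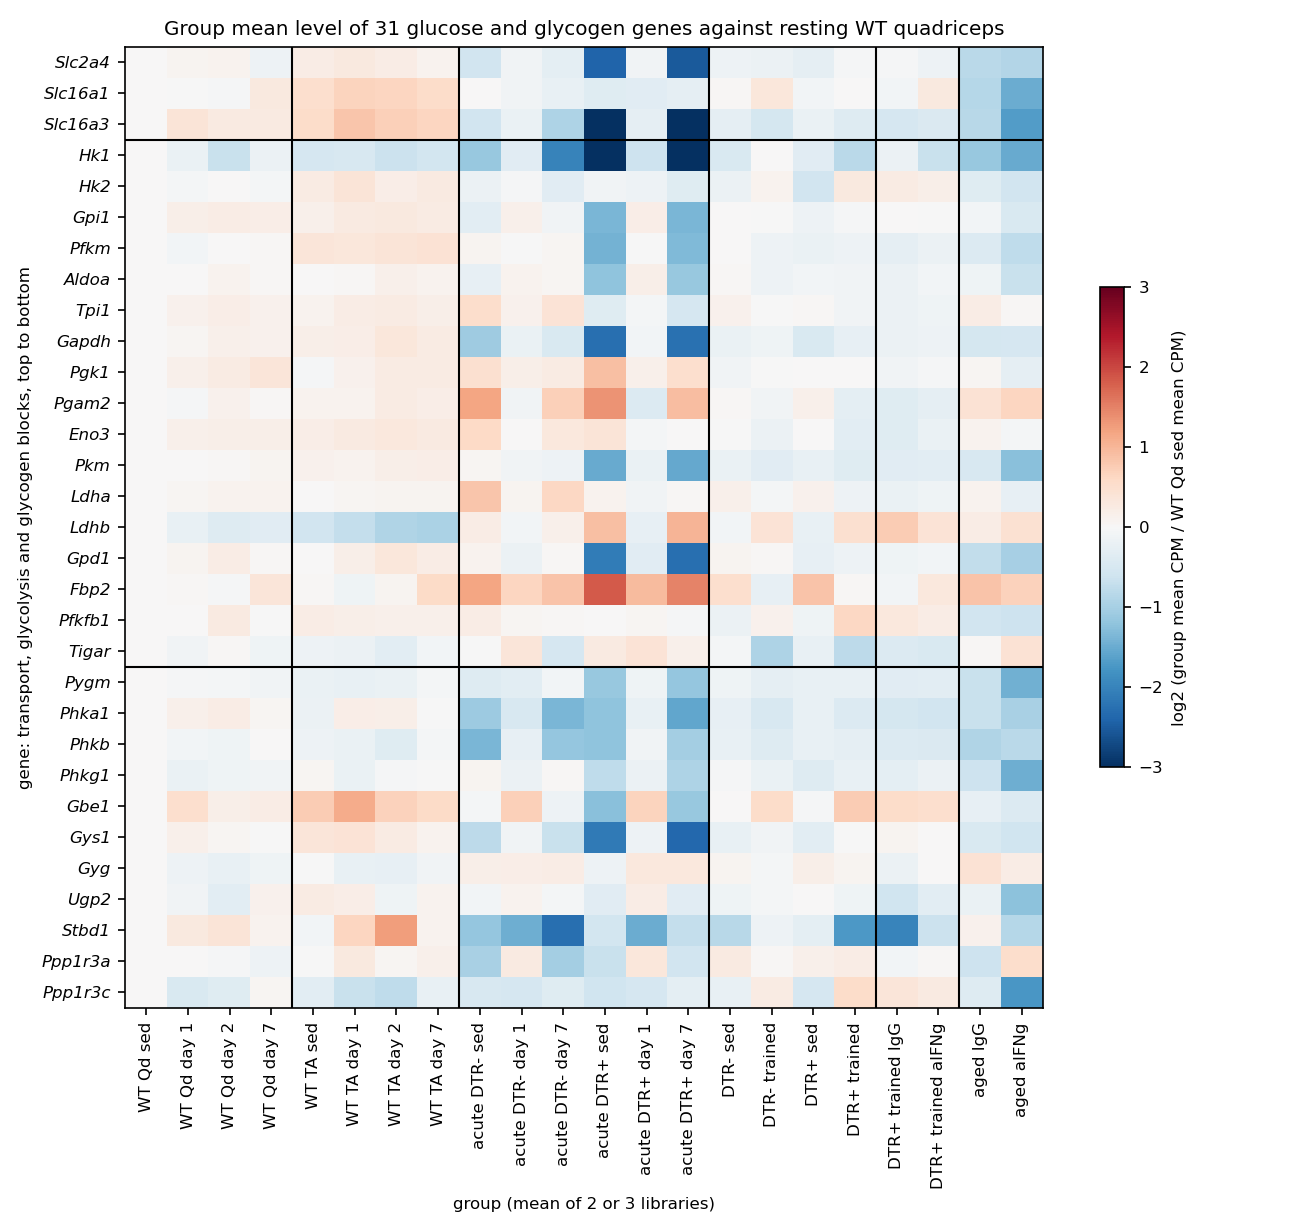
Group mean level of each of the 31 genes (rows, in blocks for transport, glycolysis and glycogen) in the 22 groups (columns, means of 2 or 3 libraries), as log2 of the ratio to resting wild-type quadriceps. The colour scale ends at 3 log2 units either way, and Slc16a3 and Hk1 pass below it in acute DTR+ mice at rest or day 7. Columns of the 16 groups are pale for most genes, and the strongest colours lie in the acute DTR+ columns at rest and day 7.

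At rest the quadriceps and tibialis anterior of the same wild-type mice differed in 4 of the 31 genes, all lower in quadriceps. Among all genes 1.3% were called in this comparison. Pfkm, which catalyses the committed step, read 3412, 3473 and 3513 CPM in quadriceps and 4375, 4522 and 4553 CPM in tibialis anterior. The muscles did not overlap, and the log2 fold change was -0.38 ± 0.06 (edgeR adjusted p = 0.000705, n = 3 and 3). Slc16a3, the lactate exporter, read 413 to 450 CPM in quadriceps and 615 to 663 CPM in tibialis anterior (log2 -0.57 ± 0.12, edgeR adjusted p = 0.0122). Gbe1 (-0.76 ± 0.12, adjusted p = 0.000362; 75.1 ± 6.95 against 127 ± 22.9 CPM) and Gys1 (-0.36 ± 0.07, adjusted p = 0.00695; 611 ± 12.1 against 781 ± 57.8 CPM), which branch and extend glycogen, were also lower without overlap. The call of Slc16a3 was lost without the quadriceps of animal 6 or 7 or the tibialis anterior of animal 5 (adjusted p = 0.0825, 0.0511 and 0.0639), and that of Gys1 without the tibialis anterior of animal 5 (0.0777).

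The median log2 fold change of the 31 genes between the muscles was -0.07 beside 0.01 over all genes, with 10 higher and 21 lower in quadriceps. With the animal as a block 8 were called, adding Eno3 lower (adjusted p = 0.0107) and Ldhb (0.0121), Ppp1r3c (0.0319) and Pygm (0.0347) higher in quadriceps. The share of all genes called with the block is not given here. The rise from 4 to 8 need not be particular to these genes. The summed level of 8 slow-fibre markers was 806 to 1455 CPM in quadriceps and 217 to 225 CPM in tibialis anterior, with all 8 detected in both. The summed level of 7 adipocyte markers was 243 to 321 against 142 to 175 CPM. Their part in the 4 differences was not tested.

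After a single bout of exercise in wild-type quadriceps, 1 of the 31 genes was called over 3 days of sampling. Gbe1 rose at day 1, from 71.4, 70.9 and 83.2 CPM at rest to 110, 112 and 98.9 CPM. The groups did not overlap (log2 0.53 ± 0.11, edgeR adjusted p = 0.0256, n = 3 and 3), and 0.582% of all genes were called. The call was lost without the day 1 library of animal 16 or 17 (adjusted p = 0.111 and 0.112) and without the resting library of animal 5 or 6 (0.154 and 0.148). Ppp1r3c read 408, 434 and 485 CPM at day 1 against 601, 614 and 603 CPM at rest but was not called (-0.43 ± 0.12, edgeR adjusted p = 0.143). In this comparison 10 of the 31 genes lay higher and 3 lower without overlap, all but Gbe1 not called. The share of such genes among all genes was not counted. The median of the 31 genes was 0.04 beside -0.01 over all genes.

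At day 2 none of the 31 was called with edgeR against 0.299% of all genes, and DESeq2 called 1. The share of all genes called by DESeq2 is not given here. An unadjusted p under 0.05 was found for 13 of the 31 and for 8.97% of all genes. Gpi1, which turns glucose 6-phosphate into fructose 6-phosphate, had the smallest p, with 1295 against 1116 CPM (0.23 ± 0.06, edgeR adjusted p = 0.184). At day 7 none was called by edgeR or DESeq2 against 0.214% of all genes by edgeR, with 9 of the 31 and 7.91% of all genes under an unadjusted p of 0.05. Pgk1, whose product makes the first ATP of glycolysis, stood at 262 against 204 CPM (0.39 ± 0.11, edgeR adjusted p = 0.235). The medians of the 31 genes were 0.07 at both days, with 20 and 22 of 31 higher, beside -0.01 and 0.00 over all genes.

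In tibialis anterior none of the 31 genes was called by edgeR at any day, against 0.0552%, 0.063% and 0.0158% of all genes at days 1, 2 and 7. The counts with an unadjusted p under 0.05 were 8, 13 and 13 of 31, beside 8.15%, 7.53% and 5.62% of all genes. DESeq2 called 2, 1 and 0, and its share of all genes is not given here. Phka1, the large regulatory subunit of phosphorylase kinase, had the smallest p at days 1 and 2. It read 767, 830 and 710 CPM at rest, 1025, 957 and 998 CPM at day 1, and 1079, 927 and 927 CPM at day 2. Both exercised groups lay above rest without overlap (0.41 ± 0.09 and 0.39 ± 0.09), with edgeR adjusted p of 0.111 and 0.169. At day 7 Fbp2 stood at 66.2 against 45.2 CPM (0.61 ± 0.16, edgeR adjusted p = 0.490). The medians of the 31 genes at the 3 days were 0.08, 0.08 and 0.14.

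Stbd1 reached its highest group mean of the series in the exercised tibialis anterior, where its libraries were spread widely. It read 101, 91.9 and 26.0 CPM at rest, 137, 119 and 108 CPM at day 1, 222, 156 and 177 CPM at day 2 and 114, 111 and 25.0 CPM at day 7. Day 2 lay above rest without overlap, while 1 library at rest and 1 at day 7 were low. The difference was not called.

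A test of whether the 2 muscles responded differently called none of the 31 genes with edgeR at day 1 (0.0434% of all genes), day 2 (0.00724%) or day 7 (0.0796%), and none with DESeq2. Unadjusted p fell under 0.05 for 0, 0 and 3 of them, and for 5.49%, 5.36% and 5.30% of all genes. The smallest were Ppp1r3a at day 1 (-0.30 ± 0.15, edgeR adjusted p = 0.926), Stbd1 at day 2 (-0.99 ± 0.56, 0.942) and Pygm at day 7 (-0.26 ± 0.07, 0.380).

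**Figure D2:**
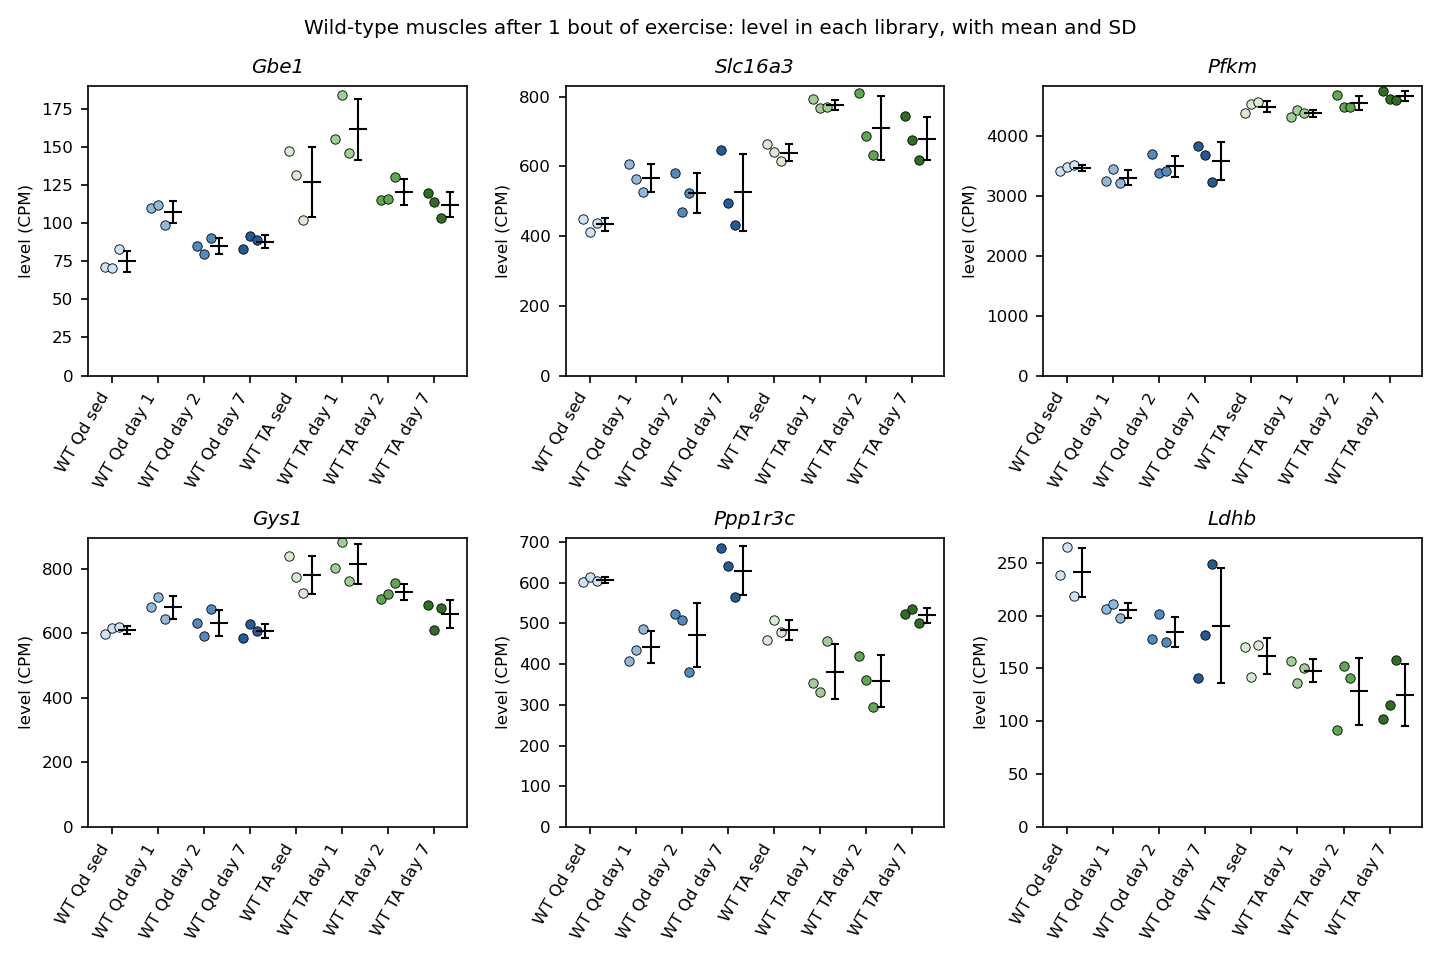
Level in CPM (vertical axis, from 0) of Gbe1, Slc16a3, Pfkm, Gys1, Ppp1r3c and Ldhb in each wild-type library, by muscle and day (horizontal axis), with the mean and SD of 3 libraries beside the points. At rest the quadriceps points of Gbe1, Slc16a3, Pfkm and Gys1 lie below those of the tibialis anterior, and Gbe1 in quadriceps lies higher at day 1 (98.9 to 112 CPM) than at rest (70.9 to 83.2 CPM).

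Training for 2 weeks raised or lowered 4 genes in DTR+ mice, 3 of them of glycogen. Of the 31 genes 3 rose and 1 fell, against 2.21% of all genes called. Of these 4, Ppp1r3c, Stbd1 and Gbe1 act on glycogen and Hk2 on the first step of glycolysis. In DTR- mice 1 fell, Tigar, against 0.103% of all genes called. The promoters of the 4 genes called in DTR+ mice are shown first, since the paragraphs after them give their values. They are windows of 300 bases across the transcript start (RefSeq, GRCm38.p6), and 29 of the 31 genes had an entry.

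Stbd1, chr5:92602801-92603100, + strand: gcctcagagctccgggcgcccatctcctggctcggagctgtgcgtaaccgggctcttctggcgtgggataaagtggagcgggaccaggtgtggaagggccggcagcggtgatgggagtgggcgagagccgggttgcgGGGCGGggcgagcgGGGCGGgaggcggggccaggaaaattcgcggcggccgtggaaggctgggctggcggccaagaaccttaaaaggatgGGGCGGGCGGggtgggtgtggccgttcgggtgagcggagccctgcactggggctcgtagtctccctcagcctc
Ppp1r3c, chr19:36736555-36736854, - strand: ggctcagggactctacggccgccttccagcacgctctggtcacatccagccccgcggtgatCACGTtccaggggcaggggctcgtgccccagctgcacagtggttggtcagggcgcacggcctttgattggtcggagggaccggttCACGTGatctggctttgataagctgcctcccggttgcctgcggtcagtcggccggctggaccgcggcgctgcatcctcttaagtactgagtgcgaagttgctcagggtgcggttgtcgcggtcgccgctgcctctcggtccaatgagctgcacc
Hk2, chr6:82774405-82774704, - strand: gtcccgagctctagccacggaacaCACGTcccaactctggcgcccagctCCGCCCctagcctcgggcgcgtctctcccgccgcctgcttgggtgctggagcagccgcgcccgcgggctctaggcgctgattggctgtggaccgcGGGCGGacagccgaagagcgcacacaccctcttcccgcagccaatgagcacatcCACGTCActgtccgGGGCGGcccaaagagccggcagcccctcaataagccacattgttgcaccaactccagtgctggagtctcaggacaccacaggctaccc
Gbe1, chr16:70313699-70313998, + strand: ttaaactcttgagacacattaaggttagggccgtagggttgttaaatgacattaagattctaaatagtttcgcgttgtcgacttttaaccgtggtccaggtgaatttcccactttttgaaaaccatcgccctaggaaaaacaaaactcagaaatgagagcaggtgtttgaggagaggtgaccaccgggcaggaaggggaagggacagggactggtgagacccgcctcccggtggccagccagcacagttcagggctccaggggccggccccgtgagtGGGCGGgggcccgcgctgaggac

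Capitals mark matches, on either strand, to 7 motifs searched: the gamma-activated site TTCNNNGAA, the interferon response motif GAAANNGAA, the E-box CACGTG, the hypoxia response core ACGTG, the cyclic AMP response core TGACG, the GC box GGGCGG and the TATA box TATAAA. Every E-box contains the hypoxia core, and the hypoxia and cyclic AMP cores share letters where they meet in Hk2. Stbd1 held 4 GC boxes, at -113, -99, -23 and -19, counted from the first transcribed base as 1. Ppp1r3c held an E-box at -104 and another hypoxia core at -189. Hk2 held hypoxia cores at -226 and -52, a cyclic AMP core at -50 and GC boxes at -201, -106 and -38, and Gbe1 a GC box at 28.

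Of all 32851 promoters of this length, 35.7% held a GC box, 19.6% the hypoxia core, 20.8% the cyclic AMP core and 7.15% the E-box. Of the 29 promoters of these genes, 18, 15, 9 and 6 did. The letters of the gamma-activated site were in 1 of the 29 (8.30% of all promoters) and those of the interferon response motif in 3 (8.56%), none of them among the 4 shown. The TATA box was in 2 of 29 (13.6%). A match describes letters and is not evidence of binding.

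Ppp1r3c, the targeting subunit that favours glycogen synthesis, had the smallest p in trained DTR+ mice. It read 501, 338 and 447 CPM in sedentary DTR+ mice and 854, 920 and 903 CPM in trained ones. Every trained library lay above every sedentary one (log2 1.03 ± 0.16, edgeR adjusted p = 0.00118, n = 3 and 3). In DTR- mice it read 549, 550 and 467 CPM sedentary and 657, 837 and 671 CPM trained, also without overlap, but was not called (0.41, edgeR adjusted p = 0.889). The difference between genotypes in this response was 0.62 (edgeR adjusted p = 0.431).

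Hk2, the hexokinase that traps incoming glucose, read 227, 180 and 202 CPM in sedentary and 374, 383 and 354 CPM in trained DTR+ mice. The groups did not overlap (0.83 ± 0.18, edgeR adjusted p = 0.0155). In DTR- mice it read 301, 300 and 195 CPM sedentary and 291, 349 and 327 CPM trained, which overlap (0.22, edgeR adjusted p = 0.999). The genotype difference in response was 0.61 (edgeR adjusted p = 0.570). The call in DTR+ mice was lost without trained library 1 or 2 (adjusted p = 0.0614 and 0.122) and with only the 2 groups in the fit (0.0909).

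Gbe1 read 97.7, 63.1 and 60.4 CPM in sedentary and 111, 138 and 133 CPM in trained DTR+ mice, without overlap (0.75 ± 0.19, edgeR adjusted p = 0.0468). In DTR- mice it read 72.2, 72.6 and 81.9 CPM sedentary and 105, 128 and 98.8 CPM trained, likewise without overlap (0.49, edgeR adjusted p = 0.898). The genotype difference was 0.26 (edgeR adjusted p = 0.964). The call in DTR+ mice was lost with the replicate number as a block (adjusted p = 0.0681) with a trend on gene length and GC content removed (0.0564) and with only the 2 groups in the fit (0.232). It was also lost without any 1 of the 3 trained libraries (0.0787, 0.292 and 0.0913) or without sedentary library 3 (0.127).

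Stbd1, the glycogen tether, responded differently to training in the 2 genotypes. In DTR+ mice it read 52.5, 59.7 and 78.9 CPM sedentary and 18.2, 13.0 and 39.0 CPM trained, without overlap, and fell (-1.50 ± 0.29, edgeR adjusted p = 0.00767). That call was lost without trained library 1 or 2 (adjusted p = 0.0578 and 0.073) and with only the 2 groups in the fit (0.0801). In DTR- mice it read 45.2, 40.7 and 45.0 CPM sedentary and 71.4, 84.9 and 54.1 CPM trained, without overlap but not called (0.62, edgeR adjusted p = 0.949). The difference between these responses was -2.12 ± 0.40 (edgeR adjusted p = 0.0262), the only one of the 31 genes called there against 0.27% of all genes. That call held in 5 of 12 fits that left out 1 library. It was lost without DTR- trained library 1 or 2, any of the 3 DTR- sedentary libraries, or DTR+ trained library 1 or 2 (adjusted p = 0.0822 to 0.107).

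Between trained mice of the 2 genotypes Stbd1 was again the only one of the 31 called, against 0.89% of all genes. Its mean was 23.4 ± 13.8 CPM for trained DTR+ and 70.1 ± 15.4 CPM for trained DTR- mice (-1.54 ± 0.29, edgeR adjusted p = 0.00766), and the call was lost without DTR- trained library 2 (adjusted p = 0.0626) or DTR+ trained library 1 or 2 (0.0829 and 0.0747). Between sedentary mice none was called by edgeR or DESeq2 (0.0477% of all genes by edgeR) and none had an unadjusted p under 0.05, beside 5.10% of all genes. Stbd1 had the smallest p, at 63.7 against 43.7 CPM (0.58 ± 0.28, edgeR adjusted p = 0.978). Cell markers differed between the trained genotypes too. The summed level of 5 neutrophil markers was 4.67 to 5.42 CPM in DTR+ and 0.497 to 2.66 CPM in DTR- mice. That of 10 markers of fibro-adipogenic cells and tendon was 1928 to 2228 against 2382 to 2686 CPM. Sums of the other marker lists overlapped. No marker tested was called, and no neutrophil marker was tested. The part of these in the difference of Stbd1 was not tested.

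Tigar, which restrains glycolysis, was lower in trained mice of both genotypes. In DTR- mice it read 52.7, 60.8 and 55.3 CPM sedentary and 30.8, 32.0 and 29.6 CPM trained (-0.93 ± 0.18, edgeR adjusted p = 0.0447). The call was lost in all 6 fits without 1 library (adjusted p = 0.224 to 0.355) and with the replicate block (0.104). In DTR+ mice it read 52.5, 46.8 and 52.4 CPM sedentary and 37.9, 29.8 and 35.1 CPM trained (-0.60, edgeR adjusted p = 0.0838). Fbp2, which opposes Pfkm, read 56.5 to 95.1 CPM in the 6 sedentary and 31.6 to 49.8 CPM in the 6 trained libraries of both genotypes, with adjusted p of 0.405 in DTR- and 0.0516 in DTR+ mice by edgeR.

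With genotypes side by side, 4 of the 31 genes had no overlap between the 6 sedentary and the 6 trained libraries: Tigar, Fbp2, Gbe1 and Ppp1r3c. Among all genes tested 1.67% had no such overlap. Tigar ranged from 46.8 to 60.8 CPM sedentary and from 29.6 to 37.9 CPM trained. Gbe1 ranged from 60.4 to 97.7 and from 98.8 to 138 CPM, and Ppp1r3c from 338 to 550 and from 657 to 920 CPM. The median log2 fold change of the 31 genes was -0.18 in DTR- mice (0.01 over all genes) and -0.05 in DTR+ mice (-0.04 over all genes).

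The share of the heart-type lactate dehydrogenase subunit was read per length and was not tested. It depends on the merged exon lengths used, 3310 bases for Ldha and 1570 for Ldhb. Ldhb made up 5.81% to 7.83% of Ldha and Ldhb per length in the 6 sedentary libraries and 9.07% to 16.1% in the 6 trained ones, without overlap. It made up 10.0% to 20.3% in the 6 trained libraries of the antibody experiment. In resting wild-type quadriceps it made up 8.2% to 9.4%, which reaches into the trained range. Ldhb itself was not called in either genotype (0.43, adjusted p = 0.999 in DTR-; 0.64, 0.213 in DTR+, by edgeR).

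Markers of cell and fibre types differed between the same libraries. The summed level of 11 fast-fibre markers was 155173 to 165004 CPM in sedentary and 129641 to 144624 CPM in trained libraries, that of 6 endothelial markers 180 to 290 and 294 to 426 CPM, and that of 8 slow-fibre markers overlapped. All markers of these lists were detected. In DTR+ mice Myh4, the myosin of the fastest fibres, fell from 34249 to 20166 CPM, and the myosins Myh1 (2575 to 6724 CPM) and Myh2 (927 to 3004 CPM) rose. Myh1 also rose in DTR- mice, from 2746 to 7007 CPM (1.29 ± 0.18, edgeR adjusted p = 0.004), where Myh4 and Myh2 were not called. Their part in the changes of glycogen genes was not tested. Without the 1 sedentary DTR+ library that stood apart, with 8.01% mitochondrial counts and 17342 genes detected, Ppp1r3c (0.96, edgeR adjusted p = 0.000772), Stbd1 (-1.45, 0.00732), Hk2 (0.83, 0.00807) and Gbe1 (0.71, 0.0321) were still called.

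**Figure D3:**
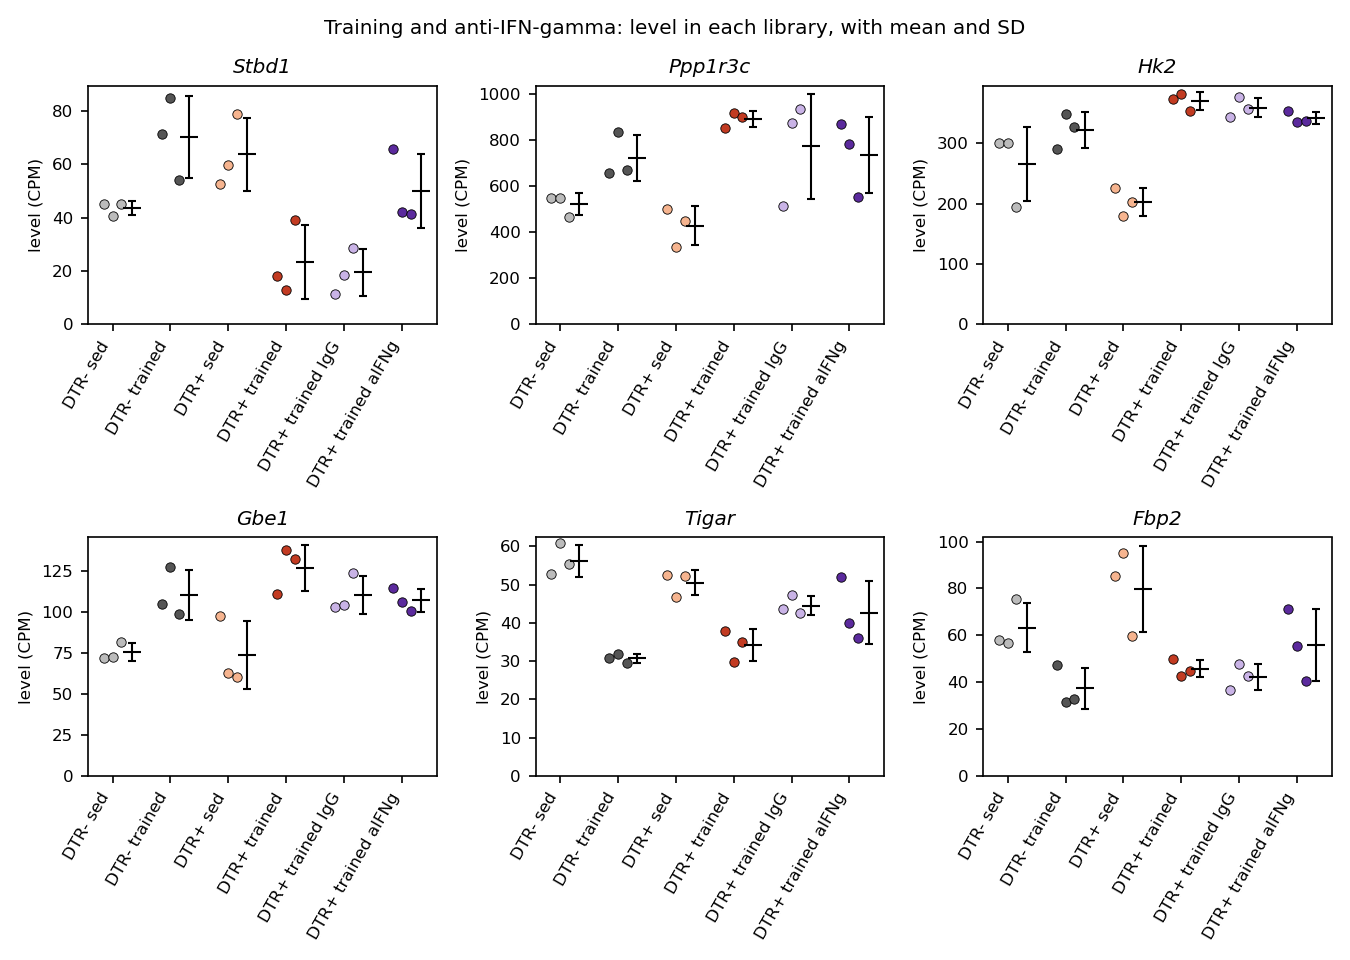
Level in CPM (vertical axis, from 0) of Stbd1, Ppp1r3c, Hk2, Gbe1, Tigar and Fbp2 in each library of the training and antibody experiments (horizontal axis: group), with the mean and SD of 3 libraries beside the points. Ppp1r3c and Gbe1 lie higher, and Tigar and Fbp2 lower, in all trained libraries than in all sedentary libraries of the training experiment, while Stbd1 is low in trained DTR+ mice (13.0 to 39.0 CPM) and not in trained DTR- mice (54.1 to 84.9 CPM).

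Antibody against interferon gamma changed 1 of the 31 genes in trained DTR+ mice, against 1.35% of all genes. Stbd1 rose, from 11.3, 18.4 and 28.7 CPM with IgG to 65.9, 42.1 and 41.5 CPM with the antibody. The groups did not overlap (1.36 ± 0.26, edgeR adjusted p = 0.0167, n = 3 and 3). The call was lost with DESeq2 (adjusted p = 0.0911), with the replicate number as a block (0.0763) and without antibody library 1 or 2 (0.105 and 0.0534) or IgG library 2 (0.102). The median of the 31 genes was 0.04 beside 0.00 over all genes, with 19 higher and 12 lower. Ppp1r3c overlapped, from 512 to 935 CPM with IgG and from 553 to 873 CPM with the antibody.

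Slow-fibre markers differed between the same groups. Their summed level was 1271 to 1448 CPM with IgG and 532 to 1103 CPM with the antibody, and 2 of 8 fell. The macrophage marker sum was 366 to 400 against 214 to 336 CPM, and 1 of 10 fell. Their part in the change of Stbd1 was not tested.

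In the acute experiment DTR+ mice at rest had far fewer transcripts of the carriers Slc16a3 and Slc2a4 than DTR- mice. Of the 31 genes 7 rose and 15 fell, against 26.7% of all genes called. By step, 2 of 3 transport genes fell, 4 of 17 glycolysis genes rose and 9 fell, and 3 of 11 glycogen genes rose and 4 fell. The median of the 31 was -0.07 beside -0.06 over all genes, and 14 were called without DTR+ library 2. These libraries are the ones that stood apart: the mitochondrial share was 21.4% to 23.5% for DTR+ and 7.89% to 12% for DTR- mice. Genotype and this library property cannot be told apart at rest and at day 7.

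Scaling set part of the direction in this experiment. Against scaling by library totals alone, an alternative chosen after seeing the data, TMM moved the median log2 fold change of all genes by 0.31 at rest and by 0.28 at day 7 between genotypes, and by -0.25 in DTR- and -0.53 in DTR+ mice from rest to day 1. With library totals 3 of the 31 genes rose and 15 fell at rest, against 27.8% of all genes, and the calls of Stbd1 (0.61, edgeR adjusted p = 0.0842), Ppp1r3a (0.29, 0.214), Phkb (0.15, 0.422) and Tigar (0.28, 0.292) were lost.

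Markers of other cells and of fibres differed between the resting groups too. Of 11 fast-fibre markers 8 rose and 1 fell in DTR+ mice, with overlapping sums of 138577 to 141744 and 134034 to 152978 CPM. The one that fell was Atp2a1, the calcium pump of fast fibres, at 5849 against 38167 CPM. Schwann cell markers summed to 75.5 to 81.8 CPM in DTR+ mice, with Sox10 at 0, and 129.9 to 171 CPM in DTR- mice, and 1 of 4 tested fell. Of the 8 T and NK cell markers tested none was called. The part of these in the changes was not tested.

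Slc16a3 (chr11:120948480-120960868, + strand, GRCm38), which exports lactate, read 19.0 and 26.1 CPM in resting DTR+ mice and 203, 330 and 345 CPM in DTR- mice. The groups lay far apart (-3.38 ± 0.26, edgeR adjusted p = 6.92e-08, n = 2 and 3). Slc2a4 (chr11:69942539-69948188, - strand), the GLUT4 gene, read 100 and 124 against 349, 425 and 422 CPM (-1.52 ± 0.16, edgeR adjusted p = 1.86e-06). Slc16a1 was not called, and its share of Slc16a1 and Slc16a3 per length was 54.2% ± 1.60 in DTR+ against 11.0% ± 2.60 in DTR- mice.

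Among glycolysis genes Gpd1 (-1.90 ± 0.23, adjusted p = 6.23e-06), Pkm (-1.25 ± 0.15, 6.23e-06), Pfkm (-1.18 ± 0.15, 1.38e-05), Gpi1 (-0.74 ± 0.14, 0.000488), Aldoa (-0.66 ± 0.14, 0.00121), Hk1 (-2.89 ± 0.66, 0.0026) and Gapdh (-0.89 ± 0.22, 0.00549) fell. Hk1 rests on few reads, 6 and 3 counts in the 2 DTR+ libraries. Tpi1 (-0.58) and Ldha (-0.42) fell by less, and Ldhb (0.98 ± 0.18, 0.000439), Fbp2 (0.98 ± 0.18, 0.000439), Pgk1 (0.73 ± 0.15, 0.000872) and Tigar (0.59 ± 0.20, 0.0315) rose. Of the glycogen genes Gys1 read 129 and 152 against 298, 365 and 396 CPM (-1.02 ± 0.14, 2.49e-05), and Gbe1 (-0.87), Phkg1 (-0.55) and Pygm (-0.46) also fell. Stbd1 (0.92 ± 0.24, 0.00762), Ppp1r3a (0.60 ± 0.17, 0.0108) and Phkb (0.46 ± 0.14, 0.016) rose, all by edgeR.

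After a smooth trend of each library on gene length and GC content was removed, 6 of the 31 genes rose and 10 fell, against 20.8% of all genes called. Of the 22 called before, 15 kept their call. Slc16a3 (-2.70), Slc2a4 (-1.03) and Gpd1 (-1.38) were still lower, Pygm moved from -0.46 to 0.0062, and the median of the 31 genes was -0.25. Across the 31 genes the log2 fold change had a rank correlation of -0.38 with exon length as counted, a description over genes of the same libraries.

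**Figure D4:**
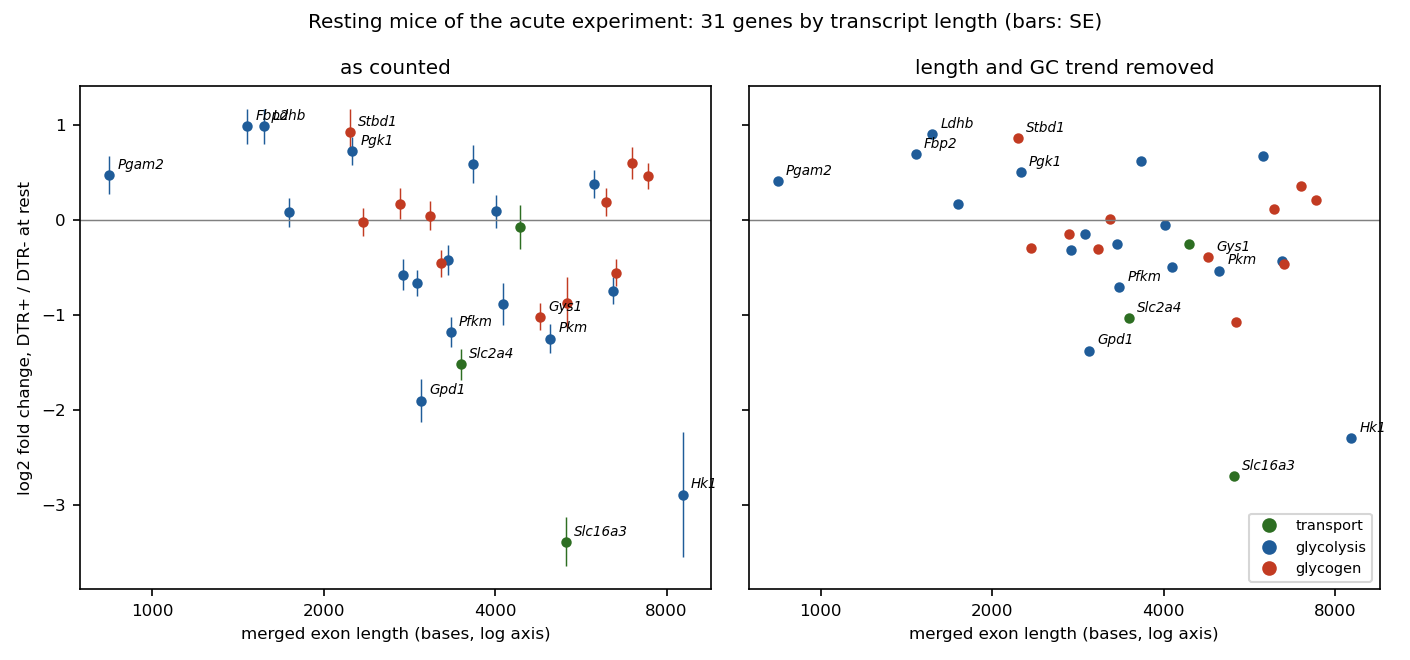
Log2 fold change between resting DTR+ and DTR- mice of the acute experiment (vertical axis) against merged exon length in bases (horizontal log axis) for the 31 genes, as counted with SE bars (left) and with the length and GC trend removed (right). Slc16a3 (-3.38 and -2.70), Hk1, Gpd1 and Slc2a4 lie lowest in both panels.

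At day 7 the carriers Slc16a3 and Slc2a4 and the enzyme Gpd1 were again far lower in DTR+ mice. Of the 31 genes 7 rose and 12 fell, against 25.3% of all genes called (median -0.03 beside -0.10 over all genes), 4 rose and 10 fell with the trend removed, against 19.9%, and 4 rose and 14 fell with library totals, against 28.1%. Slc16a3 read 28.4 and 15.0 CPM in DTR+ against 228 and 225 CPM in DTR- mice (-3.09 ± 0.26, edgeR adjusted p = 2.14e-07). Slc2a4 read 117 and 88.4 against 543 and 417 CPM (-1.93 ± 0.17, 3.68e-07), and Gpd1 155 and 86.8 against 583 and 596 CPM (-2.0 ± 0.24, 8e-06). None of these pairs of groups overlapped.

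Gys1 (-1.41 ± 0.15), Gapdh (-1.49 ± 0.24), Pkm (-1.10 ± 0.16), Pfkm (-1.10 ± 0.16), Gpi1 (-0.98 ± 0.15), Aldoa (-0.91 ± 0.15) and Pygm (-0.79 ± 0.15) fell, as did Phkg1 (-0.68) and Tpi1 (-0.63). Stbd1 read 54.4 and 40.6 against 17.8 and 14.7 CPM and rose (1.84 ± 0.29, edgeR adjusted p = 9.27e-05). Ldhb (1.14 ± 0.20), Tigar (0.94 ± 0.22), Fbp2 (0.91 ± 0.21), Ppp1r3a (0.72 ± 0.19), Pgk1 (0.56 ± 0.16) and Phkb (0.42 ± 0.15) rose too, the calls of Pgk1, Ppp1r3a and Phkb being lost with library totals (edgeR adjusted p = 0.183, 0.0832 and 0.506). The 10 T and NK cell markers summed to 27.8 to 78.2 CPM in DTR+ and 4.01 to 7.25 CPM in DTR- libraries at day 7. In DTR- mice Cd3d, Cd2, Cd8a, Trbc2 and Gzmb were at 0, and mitochondrial shares were 20% to 21.8% and 8.70% to 8.92%. Of 10 macrophage markers 6 rose and 1 fell (sums of 303 to 545 against 215 to 253 CPM), and of 11 fast-fibre markers 6 rose and 1 fell. The part of these in the changes was not tested.

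At day 1 none of the 31 genes differed between genotypes by edgeR or DESeq2, and 0.0% of all genes were called by edgeR. Of the 31 genes 1 had an unadjusted p under 0.05, and 281 did among all genes. That gene was Phka1, at 743 against 625 CPM (0.28 ± 0.13, edgeR adjusted p = 1). Slc16a3 read 384, 353 and 337 CPM in DTR+ and 409, 357 and 366 CPM in DTR- mice, and Slc2a4 577, 557 and 525 against 523, 548 and 565 CPM. Both overlapped. Mitochondrial shares were 5.44% to 6.56% in these 6 libraries.

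The comparison of day 1 with rest set libraries with 5.44% to 6.56% mitochondrial counts against libraries with 7.89% to 23.5%, and its part in the changes was not tested. In DTR+ mice 15 of 31 genes rose and 10 fell, against 42.4% of all genes called. The carriers Slc16a3 (3.45 ± 0.26, edgeR adjusted p = 3.56e-09) and Slc2a4 (1.77 ± 0.16, 3.88e-08) rose. So did Gys1 (1.45 ± 0.14, 9.55e-08), Gpi1 (1.02 ± 0.14, 6.65e-06), Gapdh (1.63 ± 0.23, 8.67e-06), Aldoa (0.86 ± 0.14, 4.38e-05), Pfkm (0.87 ± 0.15, 9.61e-05), Gpd1 (1.24 ± 0.22, 0.000136), Pkm (0.78 ± 0.15, 0.00022) and Gbe1 (1.37 ± 0.27, 0.000349). Hk1, Phkb, Pygm, Phka1 and Ppp1r3a rose as well (0.45 to 3.17).

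Pgam2, which moves the phosphate of phosphoglycerate, fell furthest of the 31 in DTR+ mice. It read 8403 and 8353 CPM at rest and 2246, 2057 and 3110 CPM at day 1 (-2.29 ± 0.20, edgeR adjusted p = 2.62e-08). Ldhb (-1.70 ± 0.18, 2.88e-07), Pgk1 (-1.30 ± 0.14, 4.98e-07), Fbp2 (-1.45 ± 0.18, 2.08e-06), Eno3 (-0.96 ± 0.15, 3.77e-05), Stbd1 (-1.45 ± 0.24, 6.88e-05), Ldha (-0.74 ± 0.15, 0.000524), and Hk2 (-0.58 ± 0.15, 0.00405) fell too. Pfkfb1 (-0.48 ± 0.17, 0.0285) and Ppp1r3c (-0.43 ± 0.16, 0.0393) were called lower with TMM scaling, while their mean levels were 54.1 CPM at rest and 56.6 CPM at day 1, and 397 and 428 CPM. With library totals both had the other sign (0.063 and 0.11) and were not called, and the calls of Hk2 (-0.04, edgeR adjusted p = 0.847) and Ldha (-0.21, 0.197) were lost. Then 18 of the 31 genes rose and 6 fell, against 49.5% of all genes. With the trend removed 14 rose and 8 fell, against 37.0% of all genes. The median of the 31 genes as counted was 0.05 and that of all genes 0.28.

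In DTR- mice 4 of 31 rose and 9 fell at day 1 against rest, with 16.4% of all genes called, and 4 rose and 6 fell with the trend removed, against 12.5%. With library totals in place of TMM the split turned to 9 up and 5 down, against 18.2%. The median of the 31 was -0.23 beside 0.09 over all genes. Pgam2 again fell furthest of the 31, from 7436, 7719 and 7332 CPM to 3644, 2665 and 2917 CPM (-1.53 ± 0.19, edgeR adjusted p = 2.94e-05). Ldha fell from 9425, 9678 and 9494 CPM to 6595, 4968 and 5312 CPM (-1.01 ± 0.14, 0.000109). No library at day 1 reached the resting range of either gene. Eno3 (-0.84), Fbp2 (-0.78), Tpi1 (-0.64), Pgk1 (-0.57), Ldhb (-0.57), Phkg1 (-0.51) and Pkm (-0.41) fell, and Ppp1r3a (1.00 ± 0.15, 0.000247), Phkb (0.85 ± 0.12, 0.000146), Gapdh (0.61) and Gys1 (0.45) rose. The calls of Pgk1, Ldhb, Phkg1 and Pkm were lost with library totals (edgeR adjusted p = 0.0675, 0.159, 0.124 and 0.357). In wild-type quadriceps at day 1 none of these 13 was called, and mitochondrial shares there were 4.27% to 5.03% at day 1 and rest. The experiments were not tested against each other.

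The response at day 1 differed between genotypes for 14 of the 31 genes, 12 more positive and 2 more negative in DTR+ mice, against 15.4% of all genes. With the trend removed 4 and 2 were called, against 11.2%, and with library totals 15 and 1, against 17.6%. Fewer were called as counted without resting DTR+ library 2, which leaves 1 library in that group. The share of all genes called in that fit is not given. Slc16a3 (3.33, edgeR adjusted p = 2.28e-06), Slc2a4 (1.57, 6.11e-05) and Gpd1 (1.78, 0.000337) had the smallest p. This test and the comparison at rest share the resting libraries.

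From rest to day 7 none of the 31 was called by edgeR in DTR- (0.00702% of all genes) or DTR+ mice (1.01%). Unadjusted p fell under 0.05 for 10 and 7 of them, beside 7.76% and 14.2% of all genes. DESeq2 called 1 in each, and its share of all genes is not given here. Stbd1 had the smallest p in DTR- mice at 16.2 against 34.5 CPM (-1.19 ± 0.27, edgeR adjusted p = 0.179), and Pgk1 in DTR+ mice at 290 against 381 CPM (-0.52 ± 0.16, 0.128). The genotype difference in this response called none by edgeR or DESeq2, against 0.0772% of all genes by edgeR, with 2 of the 31 and 9.80% of all genes under an unadjusted p of 0.05 and Stbd1 first (0.92 ± 0.38, edgeR adjusted p = 0.411).

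**Figure D5:**
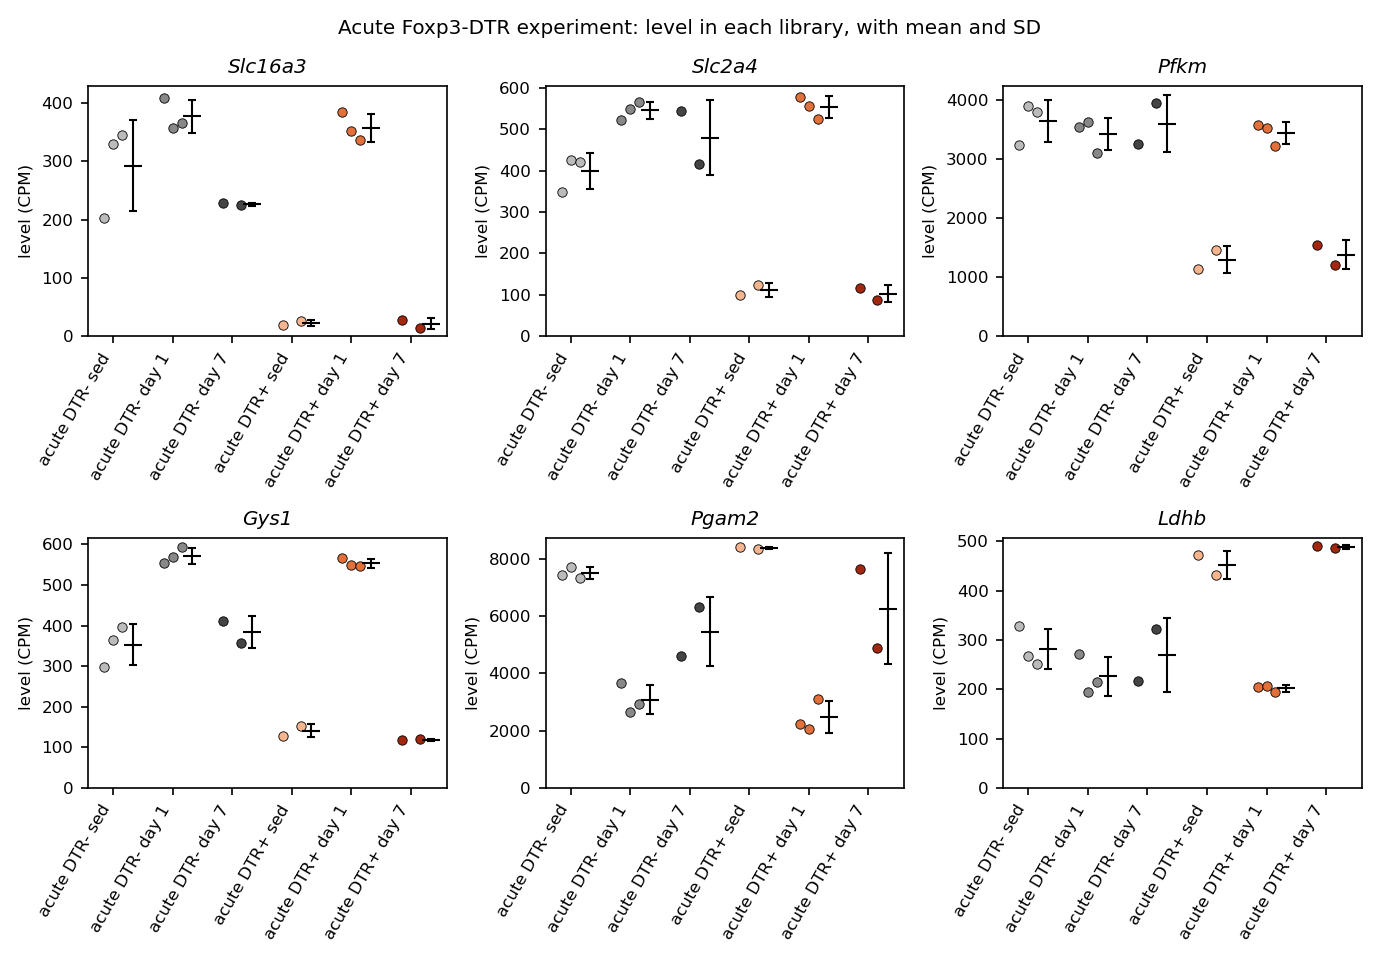
Level in CPM (vertical axis, from 0) of Slc16a3, Slc2a4, Pfkm, Gys1, Pgam2 and Ldhb in each library of the acute experiment (horizontal axis: genotype and day), with the mean and SD of 2 or 3 libraries beside the points. Slc16a3 and Slc2a4 are low in DTR+ mice at rest and day 7 and at the DTR- level at day 1, and Pgam2 is lower at day 1 than at rest in both genotypes.

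Summed over the 31 genes, the level was 40736 to 51774 CPM in the 4 DTR+ libraries at rest and day 7, below the 73298 to 81618 CPM of the 5 DTR- libraries and the 58854 to 83904 CPM of the 16 groups. The transport genes summed to 120 to 176 CPM in those DTR+ libraries and 579 to 797 CPM in the DTR- ones. The totals behind CPM include mitochondrially encoded genes, which took 20% to 23.5% of counts in those DTR+ libraries. They took 7.89% to 12% in the DTR- libraries and 4.13% to 8.93% in the 16 groups. Genotype and this share cannot be told apart there, and its part in the lower sums was not tested.

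In aged mice the antibody gave no call among the 31 genes by edgeR or DESeq2, and 0.0% of all 12531 genes were called by edgeR. None of the 31 had an unadjusted p under 0.05, and 64 of all genes did. Ppp1r3c had the smallest p, at 564 and 362 CPM with IgG and 171 and 189 CPM with the antibody, which do not overlap (-1.18 ± 1.00, edgeR adjusted p = 1.0, n = 2 and 2). The replicates of each group differed widely. Slc16a3 read 371 and 113 CPM with IgG and 54.7 and 215 CPM with the antibody, and the summed level of the 31 genes ran from 37147 to 78534 CPM. In each group 1 library had a higher mitochondrial share (8.17% and 14.0%, against 4.81% and 3.25%).

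Other genes of the pathway were read from 4 lists: 8 of transport, 21 other isoforms of glycolysis, 18 of glycogen and 14 of pyruvate entry into mitochondria. In training none of the first 3 lists had a call by edgeR in either genotype, and 1 of 14 pyruvate genes rose in DTR+ mice. That gene was Pdp1, the phosphatase that switches on pyruvate dehydrogenase, at 176 against 91.7 CPM (0.92 ± 0.17, edgeR adjusted p = 0.0063). None of the 4 lists had a call by edgeR with the antibody in trained or aged mice. Between resting wild-type muscles Tbc1d4 was higher (1.83) and its relative Tbc1d1 lower (-1.27) in quadriceps, both brakes on GLUT4 transport. Pgm1 (0.36), which links glucose 1-phosphate to glucose 6-phosphate, was higher there, and Dlat (-0.35) and Pdhb (-0.34), subunits of pyruvate dehydrogenase, were lower.

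In resting acute DTR+ mice, with 26.7% of all genes called, 3 of 8 tested genes were called in the transport list, 3 of 15 in glycolysis, 3 of 17 in glycogen and 8 of 14 in pyruvate entry. The lists had 1, 1, 1 and 3 genes up and 2, 2, 2 and 5 down. These libraries stood apart, with mitochondrial shares of 21.4% to 23.5% for DTR+ and 7.89% to 12% for DTR- mice. Genotype and this property cannot be told apart at rest, and its part in the changes was not tested. Counts with the trend removed or with library totals are not given for these lists. Pdk2, a kinase that switches off pyruvate dehydrogenase, fell (-2.67) while the pyruvate carriers Mpc1 (1.08) and Mpc2 (1.10) rose. Pfkl, the liver form of phosphofructokinase (-2.32), Gsk3b, a kinase that inhibits glycogen synthase (-2.07), and the glucose carrier Slc2a1 (-1.78) fell. Medians of the lists were -0.12, -0.28, -0.06 and -0.45 beside -0.06 over all genes. At day 1 against rest in the same genotype Pdk2 (2.97), Gsk3b (1.95) and Slc2a1 (1.26) rose, and Mpc1 (-1.90) and Mpc2 (-1.74) fell. Both comparisons share the resting DTR+ libraries, so the opposite signs are not separate evidence. The DTR+ libraries at day 1 had 5.53% to 6.31% mitochondrial counts, and the part of this gap was not tested.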

How the data were processed

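Whole-muscle RNA was sequenced in 61 libraries. Per the labels' protocols, muscle was homogenised in TRIzol and 2 ng of RNA per sample entered the ultra-low-input method of the Immunological Genome Project. The deposited values were raw gene counts, which the authors made with STAR 2.7.3a and featureCounts on mm10, per the submitters' processing notes. Not given in the sources used here are the annotation, the use of strand and the handling of reads that match several genes. Of 55011 symbols, 52936 matched GENCODE vM21 (GRCm38), which gave coordinates and exon lengths.

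Experiments were fitted separately in R 4.3.3 with edgeR 4.0.16 (TMM, filterByExpr with a minimum count of 10 and total of 15, quasi-likelihood test, Benjamini-Hochberg over all genes, threshold 0.05). A fit of all 24 wild-type libraries served the comparisons between muscles. The SE is the log2 fold change divided by the square root of F. The alternatives were DESeq2 1.42.0, no filter, only the groups compared, each library left out, the replicate number as a block, library totals in place of TMM in the acute and aged experiments (added after seeing the data), and a spline (4 degrees of freedom) on exon length and GC content removed as an offset. The fits were tested on simulated data.

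Replicate numbers pair the libraries of the 2 wild-type muscles, taken as the same animals since the labels repeat the animal number, although deviations of same-numbered libraries correlated at only -0.03 to 0.05. Elsewhere the labels give numbers without saying whether they pair libraries. No labels say that the Foxp3DTR libraries come from separate animals, so their p-values may measure technical spread. The 31 genes, the pathway and marker lists and the tests were chosen with earlier results of these data known. All 31 genes are named with a level, and per comparison the called ones with up to 10 in full per direction, or the one with the smallest p where none was called. For the other lists up to 3 called genes per list and comparison could be named.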

Additional observations from a re-analysis of the deposited data

Results flagged for a closer look

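Results are given here where a test of the difference between genotypes passed the threshold. In the training experiment the response of Stbd1 differed between DTR+ and DTR- mice by -2.12 on the log2 scale (edgeR interaction test, adjusted p = 0.0262, n = 3 in each of 4 groups). Among all genes 0.27% were called. All 3 trained DTR+ libraries lay below all 3 sedentary ones, and all 3 trained DTR- libraries above their sedentary ones. The call was lost without trained library 1 or 2 of either genotype, or without any of the 3 DTR- sedentary libraries (edgeR adjusted p = 0.0822 to 0.107).

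In the acute experiment the change from rest to day 1 differed between genotypes for 14 genes by the same kind of test (edgeR, n = 2 or 3 a group), against 15.4% of all genes. With the length and GC trend removed 6 were called, 5 of them among the 14, against 11.2% of all genes. Fewer were called as counted without resting DTR+ library 2, which leaves 1 library in that group. The share of all genes called in that fit is not given. The values that follow are as counted. The difference was positive for the carriers Slc16a3 (3.33) and Slc2a4 (1.57). It was also positive for the glycolysis genes Hk1 (2.62), Gpd1 (1.78), Pfkm (1.21), Pkm (1.19), Gapdh (1.02), Gpi1 (0.80) and Aldoa (0.75). Of the glycogen genes Gys1 (1.00), Pygm (0.70) and Phkg1 (0.56) had the same sign. It was negative for Ldhb (-1.13) and Pgk1 (-0.72), the last not called with library totals in place of TMM (-0.44, edgeR adjusted p = 0.0936). Adjusted p ran from 2.28e-06 for Slc16a3 to 0.0478 for Phkg1. The resting libraries of DTR+ mice in this test had 21.4% to 23.5% mitochondrial counts, and the part of that in the differences was not tested. No group held 4 or more libraries, so single libraries were not tested against their group.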

How the results depend on the processing

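At rest and day 1 of the acute experiment 3 values changed sign with the length and GC trend removed, alone and together with the replicate block: Pygm at rest (0.0062 and 0.028), and Pkm (-0.0089 and -0.014) and Ppp1r3c (0.13 and 0.12) from rest to day 1 in DTR+ mice, none of them called there. With library totals in place of TMM, chosen after seeing the data, Pfkfb1 (0.063) and Ppp1r3c (0.11) changed sign from rest to day 1 in DTR+ mice, and 82 of 98 values of the acute and aged experiments kept their direction and side of the threshold. The trend also left 6 calls, alone and with the block, in the genotype difference at day 1, and 14 with the block at rest. With DESeq2 the counts were 2, 1, 2 and 1 in quadriceps at days 1 and 2 and tibialis anterior at days 1 and 2, 1 and 1 from rest to day 7 in acute DTR- and DTR+ mice, 7 for training in DTR+ mice and 0 for the antibody in trained mice. With no filter they were 3, 3 and 1 in quadriceps and 4, 5 and 1 in tibialis anterior at days 1, 2 and 7, 8 between resting muscles, 2 and 2 from rest to day 7 in acute DTR- and DTR+ mice, 0 for training in DTR- mice and 1 for the difference between muscles at day 2. With only the compared groups in the fit they were 3 in quadriceps at day 1, 7 between resting muscles and 1 for training in DTR+ mice. Shares of all genes called are not given for the counts of this section, so a changed count need not be particular to these genes. The causes of these changes were not tested.

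With the replicate block, 8 genes were called between resting muscles (7 with the trend also removed), 0 for training in DTR- mice and 0 for the antibody in trained mice, the last 2 also with the trend. Same-numbered libraries deviated together with correlations of at most 0.042, 0.0999 and 0.013 in the acute, training and antibody experiments. Wild-type libraries taken as the same animals reached at most 0.053. This measure therefore cannot show whether numbers pair the libraries elsewhere. In aged mice the correlation was -0.65, and a crossed pairing, chosen after seeing the data, gave 0 calls. Leaving out 1 library in turn gave 0 to 1 calls in quadriceps at day 1, 2 to 5 between resting muscles, 14 to 21 at rest and 15 to 18 at day 7 in the acute experiment, 9 to 14 and 20 to 23 from rest to day 1 in DTR- and DTR+ mice, 0 to 1 from rest to day 7 in each, and 9 to 14 for the genotype difference at day 1. For training it gave 0 to 0 in DTR- mice, 1 to 7 in DTR+ mice, 0 to 1 between trained genotypes and 0 to 1 for the genotype difference, and for the antibody in trained mice 0 to 1. The other comparisons gave 0 throughout.

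Of 120 values with a test, 112 kept their direction and side of the threshold with DESeq2, 109 with no filter and 88 with the trend removed. Of 727 values with 1 library left out, 603 did, and none changed sign. Groups of 2 or 3 libraries limit every call, and a group reduced to 1 library was assumed to vary like the others. Depth limits Hk1, the gene with the fewest counts.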
